A study of Mus musculus with 4 samples.

Results

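The transcription factors that set microglial identity were followed here as a group of 9 genes, Sall1, Spi1, Irf8, Mef2a, Mef2c, Maf, Runx1, Mitf and Bhlhe41. They were taken by symbol from the 19737 genes of the deposited matrix. Each of the 9 symbols matched 1 row, and all 9 were among the 14058 genes that passed the filter on low counts. Microglia were profiled by single-cell RNA sequencing in 20 mice, 4 in each of 5 groups, 24 h after an intravenous antibody dose of 10 mg/kg. The antibody 4D9 binds and activates TREM2, a lipid receptor of microglia. ATV:4D9 is the same antibody with an added transferrin receptor (TfR) binding site, the antibody transport vehicle, which carries it across the blood–brain barrier. ATV:ISO is the control with the transport vehicle and no TREM2 binding.

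The groups were WT mice given ATV:ISO, WT mice given ATV:4D9, and AppSAA mice that received ATV:ISO, plain 4D9 or ATV:4D9. AppSAA mice carry a humanized, mutated App gene in the endogenous locus, homozygous, and deposit amyloid. All mice, controls included, were homozygous for TfRmu/hu, a knock-in of the human TfR apical domain that the transport vehicle needs, on a C57BL/6J background. The reporting summary gives WT;TfRmu/hu mice as 2 to 8 months old and of mixed sex, and male AppSAA;TfRmu/hu mice as 8 months old, in an entry that also names WT. The annotation records 1 mouse as female, a WT mouse given ATV:ISO. The isotype arm carries the label ATV-DNP02 in the annotation and was read as ATV:ISO. No 4D9 arm in WT mice was among the samples. Live CD11b+ cells were sorted according to the methods, whereas the deposited texts differ on CD45 and on whether hippocampus was taken with cortex.

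The matrix held 74758 cells with a median of 11351 UMIs (unique molecular identifiers, 1 per captured transcript). The mice were run in 4 pools, with all 5 groups present in each pool. No barcode was shared by 2 mice of a pool, and 543 barcodes recurred in more than 1 pool, each carrying its own pool tag. Median UMIs per cell lay between 6859 and 8173.5 in the WT ATV:ISO mice and between 13479 and 17290 in the WT ATV:4D9 mice. They lay between 8444.5 and 9883.5 in AppSAA mice given ATV:ISO, between 8293 and 11552.5 with 4D9 and between 13560 and 16475 with ATV:4D9. The 7 microglial markers, among them P2ry12 and Tmem119, were all detected and summed to between 12592 and 24501 CPM per mouse (counts scaled to a common library total). The summed markers of border-associated macrophages lay between 11.9 and 39.2 CPM and those of endothelial cells between 9.49 and 52.2 CPM. Markers of the other types fell between 0 and 44.4 CPM per list. In 12 cells (0.0161%), markers of other types held more UMIs than microglial markers, so the defining markers of the labelled cell type were present. The summed endothelial list differed between groups, at 37.5 to 52.2 CPM in AppSAA mice given ATV:ISO or 4D9, 18.3 to 24.4 CPM in WT ATV:ISO mice and 9.49 to 25.9 CPM in both ATV:4D9 groups. Most of that sum came from Flt1 (18597 UMIs over all cells) and Pecam1 (8661), against 172 UMIs of Cldn5. Which cells carried these UMIs was not tested. Oligodendrocyte markers lay at 27.8 to 40.5 CPM in WT ATV:ISO and 14.7 to 26.6 CPM in WT ATV:4D9 mice. Monocyte markers lay at 9.998 to 13.7 CPM in AppSAA ATV:4D9 mice, 5.61 to 8.86 CPM with 4D9, 4.09 to 10.3 CPM in AppSAA ATV:ISO and 4.93 to 8.27 CPM over both WT groups. The summed microglial markers lay at 23356 to 24501 CPM in WT ATV:ISO and 15825 to 17259 CPM in WT ATV:4D9 mice, and at 15230 to 18431 CPM in AppSAA ATV:ISO and 12592 to 14155 CPM in AppSAA ATV:4D9 mice. The part of these differences in the results was not tested.

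Transcription factors of this kind act in layers. PU.1, the product of Spi1, opens enhancers across the myeloid lineage and has IRF8 as a partner. RUNX1 belongs to the program of blood cell formation from which microglial precursors arise. SALL1, MEF2A, MEF2C and MAF act on top of that layer in the brain, where they keep the resting microglial gene set on. MITF belongs to the MiT/TFE family, which drives lysosomal genes, and BHLHE41 (DEC2) is a basic helix-loop-helix repressor that restrains factors with the same E-box.

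In the GRCm38 assembly (mm10), the lineage factors Spi1, Irf8 and Runx1 lie at chr2:91082390-91115756 (plus strand), chr8:120736358-120756694 (plus strand) and chr16:92601466-92826149 (minus strand). Sall1 lies at chr8:89027235-89044162 (minus strand) and Maf at chr8:115682942-115707794 (minus strand). Mef2a lies at chr7:67231163-67372858 (minus strand) and Mef2c at chr13:83504034-83667080 (plus strand). Mitf lies at chr6:97807052-98021349 (plus strand) and Bhlhe41 at chr6:145858243-145865558 (minus strand). All are protein-coding genes. Irf8 is overlapped on its own strand by 1 annotated gene and Mef2a by 2, none of which has a row in the matrix.

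The RefSeq promoter table (GRCm38.p6) held 15 start windows for 7 of the 9 members. Spi1 and Maf had no entry. The 250 bases before each start were searched on both strands for the core words that these same factors are known to read. Such words stood in windows of 6 members, and the first window that holds any is shown for each of them. Capitals mark the matched words.
Mef2a, chr7:67372859-67373108, minus strand: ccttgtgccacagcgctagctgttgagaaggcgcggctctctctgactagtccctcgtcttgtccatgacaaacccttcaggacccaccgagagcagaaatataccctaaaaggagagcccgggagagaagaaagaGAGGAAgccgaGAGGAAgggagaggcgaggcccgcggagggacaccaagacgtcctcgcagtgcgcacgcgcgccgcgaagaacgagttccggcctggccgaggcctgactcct
Mef2c, chr13:83503784-83504033, plus strand: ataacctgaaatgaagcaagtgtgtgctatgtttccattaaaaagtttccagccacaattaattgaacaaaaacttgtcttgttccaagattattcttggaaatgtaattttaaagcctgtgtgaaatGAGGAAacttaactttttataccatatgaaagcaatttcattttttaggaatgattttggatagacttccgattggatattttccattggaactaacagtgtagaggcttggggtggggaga
Mitf, chr6:97806808-97807057, plus strand: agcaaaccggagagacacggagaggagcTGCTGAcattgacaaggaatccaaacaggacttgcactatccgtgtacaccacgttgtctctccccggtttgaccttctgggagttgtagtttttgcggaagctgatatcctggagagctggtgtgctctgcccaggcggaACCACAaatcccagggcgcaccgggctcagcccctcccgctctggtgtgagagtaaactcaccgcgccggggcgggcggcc
Bhlhe41, chr6:145865421-145865670, minus strand: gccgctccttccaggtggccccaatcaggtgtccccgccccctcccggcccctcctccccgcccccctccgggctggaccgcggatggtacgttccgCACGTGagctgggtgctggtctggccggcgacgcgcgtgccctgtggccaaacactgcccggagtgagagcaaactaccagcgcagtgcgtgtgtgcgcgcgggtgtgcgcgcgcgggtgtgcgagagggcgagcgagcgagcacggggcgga
Irf8, chr8:120738389-120738638, plus strand: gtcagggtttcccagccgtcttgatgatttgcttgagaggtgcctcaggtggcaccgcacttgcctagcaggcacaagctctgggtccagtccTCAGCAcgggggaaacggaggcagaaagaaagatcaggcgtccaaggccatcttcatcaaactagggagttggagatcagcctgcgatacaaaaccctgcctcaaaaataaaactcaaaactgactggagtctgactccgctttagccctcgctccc
Runx1, chr16:92826075-92826324, minus strand: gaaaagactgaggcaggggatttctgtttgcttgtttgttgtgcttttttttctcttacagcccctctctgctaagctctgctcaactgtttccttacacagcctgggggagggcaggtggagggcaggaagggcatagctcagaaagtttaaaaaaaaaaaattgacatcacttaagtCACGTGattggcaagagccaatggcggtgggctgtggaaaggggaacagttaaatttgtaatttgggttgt
In the Mef2a window the capitals mark GAGGAA, the PU.1 core, at 2 places, and in the Mef2c window they mark it at 1 place. In the Mitf window they mark TGCTGA, the core of the MAF site, and the reverse complement of TGTGGT, the RUNX core. In the Irf8 window they mark the reverse complement of the MAF core. In the Bhlhe41 and Runx1 windows they mark CACGTG, the E-box that MITF and BHLHE41 bind. No matches overlapped. The PU.1 core stood in 4 of the 15 member windows (26.7%) and in 23.3% of all 32851 windows of the table. The MAF core stood in 4 of 15 (26.7%) and in 16.1% of all windows, the E-box in 2 of 15 (13.3%) and in 6.02%, and the RUNX core in 1 of 15 (6.67%) and in 14.05%. A paired IRF word and the MEF2 palindrome stood in 0 member windows and in 2.98% and 3.20% of all windows. A match is a word in a window and was not tested as a binding site.

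Levels are given as CPM of the UMIs summed per mouse, on library sizes scaled with TMM (trimmed mean of M values, a normalization that removes differences in composition). Group differences were tested with edgeR's quasi-likelihood test in a single fit of all 20 mice, and a gene was called at a Benjamini-Hochberg adjusted p under 0.05 over all genes tested. Fold changes are therefore relative to the other genes of the cells and not counts per cell. Since UMIs per cell rose with ATV:4D9, per-cell values of members are given beside the whole-mouse contrasts. The per-cell fits have no pool term, so their spread includes pool differences. A missing call on that scale is therefore weak evidence of no difference. Within clusters only the counts of calls per cell are given, and the related gene lists are not given on that scale. In summed cells, fewer cells of a state and less RNA per cell cannot be told apart. Nothing states that same-group mice differ in litter or cage, and p-values measure the spread between these mice. Each SE is the absolute log2 fold change divided by the square root of the F statistic of the edgeR test.

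In WT mice, the question was what the TREM2-activating antibody alone does to the factors in brains without amyloid. ATV:4D9 lowered 7 of the 9 members and raised 1, Bhlhe41, relative to ATV:ISO. Maf fell most, to 302 ± 38.1 CPM from 740 ± 65.2 CPM (SD, n = 4), and Mitf, Mef2a and Sall1 followed. Across all genes, 63.3% were called in this contrast and 32.5% were called lower, so a call on its own is common here. The median log2 fold change was -0.47 over the 9 members and -0.05 over all genes.

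Among the identity factors, Maf encodes a basic leucine zipper factor of macrophages. It stood at 648, 757, 751 and 802 CPM in the WT ATV:ISO mice of pools 1 to 4 and at 253, 346, 303 and 304 CPM in the WT ATV:4D9 mice. The groups did not overlap, and the log2 fold change was -1.29 ± 0.12 (SE, adjusted p = 1.5e-08). Mef2a, a MADS-box factor that works with PU.1, stood at 616, 636, 715 and 779 CPM with ATV:ISO and at 288, 376, 382 and 382 CPM with ATV:4D9. Its log2 fold change was -0.94 ± 0.11 (adjusted p = 5.4e-07). Sall1, a zinc-finger repressor whose expression among myeloid cells marks microglia, stood at 297, 316, 369 and 368 CPM with ATV:ISO. With ATV:4D9 it stood at 145, 180, 197 and 197 CPM, a log2 fold change of -0.91 ± 0.14 (adjusted p = 1.2e-05). In all of these genes each ATV:4D9 mouse lay below every ATV:ISO mouse, and in this contrast the groups did not overlap in either direction for 55.6% of all genes. Mef2c, the relative of Mef2a, was the least variable of the members under ATV:ISO, at 967 to 981 CPM, and lay at 665 to 763 CPM under ATV:4D9. Its fall was smaller than those above, at -0.45 ± 0.06 (adjusted p = 4.3e-06).

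The lineage factors divided. Irf8, which specifies macrophages from precursors, stood at 557, 513, 551 and 565 CPM with ATV:ISO and at 381, 378, 408 and 414 CPM with ATV:4D9, a log2 fold change of -0.47 ± 0.07 (adjusted p = 7.9e-06). Runx1 went from 238 ± 20.9 to 177 ± 12.1 CPM, a log2 fold change of -0.42 ± 0.08 (adjusted p = 0.00019), without overlap. Spi1 was not called. It stood at 511, 446, 380 and 376 CPM with ATV:ISO and at 467, 406, 371 and 372 CPM with ATV:4D9, and the groups overlapped (log2 fold change -0.08 ± 0.13, adjusted p = 0.61). Spi1 was highest in the pool 1 mouse in each of the 5 groups and Mef2a was lowest there in each of the 5, so part of their spread followed the pool.

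Mitf stood at 35.8, 39.7, 42.3 and 42.5 CPM in the ATV:ISO mice and at 19.5, 21.2, 22.2 and 19.9 CPM in the ATV:4D9 mice, with a log2 fold change of -0.95 ± 0.09 (adjusted p = 1.7e-08). Bhlhe41 went the other way, from 163, 146, 132 and 142 CPM to 171, 205, 172 and 172 CPM. Its groups did not overlap either, though the lowest treated mouse lay just above the highest control (log2 fold change 0.31 ± 0.09, adjusted p = 0.0057).

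**Figure D1:**
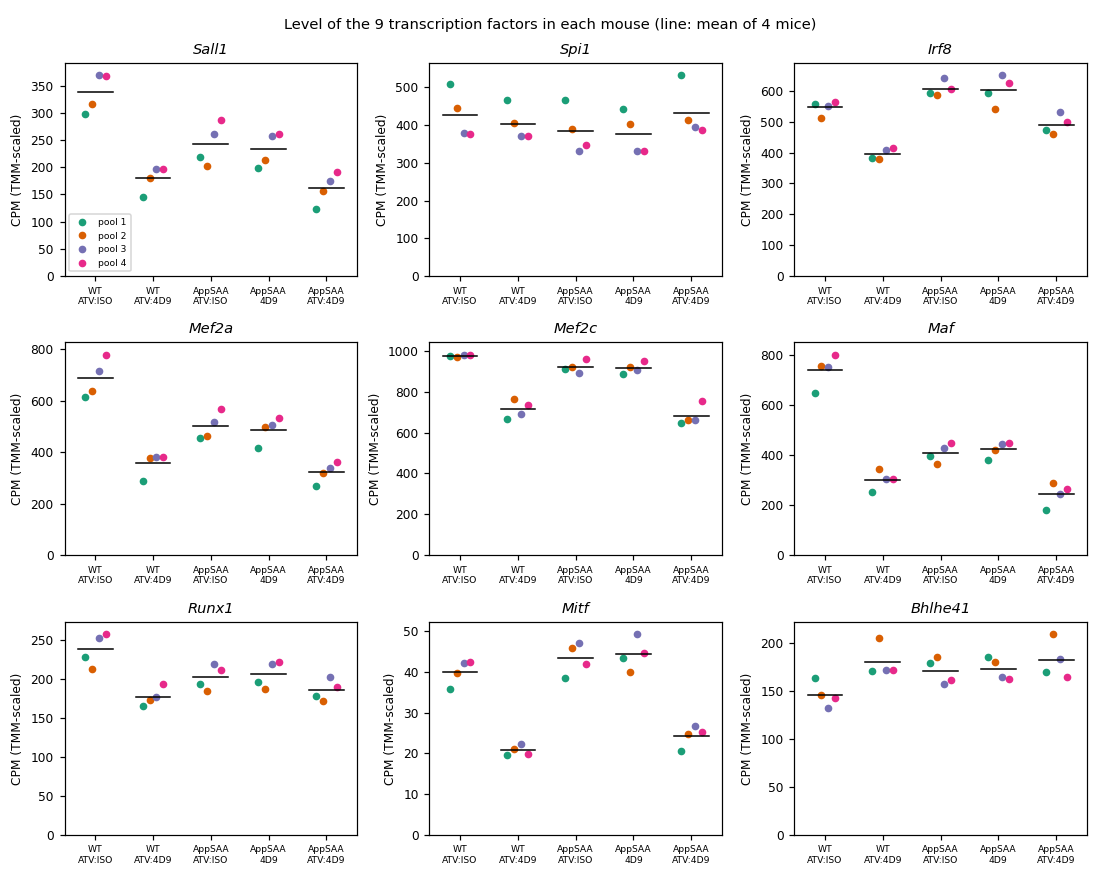
Level of each member (CPM on TMM-scaled library sizes, axis from 0) in each of the 20 mice, by group, with points coloured by pool and a line at the mean of 4 mice. Maf, Mef2a, Sall1 and Mitf are lower in both ATV:4D9 groups than in the ATV:ISO group of the same genotype, whereas the Spi1 groups overlap and its pool 1 mouse is the highest in each group.

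Counted per cell instead of per total UMIs, the picture in WT mice differed. UMIs per cell rose, and with the number of cells as the library size the median log2 fold change of all genes was 0.79 and 70.5% of them were called. On that scale Maf was still called lower (-0.46, adjusted p = 0.048). Sall1 (-0.06, adjusted p = 0.82), Mef2a (-0.10, adjusted p = 0.68) and Mitf (-0.12, adjusted p = 0.57) were not called. Irf8 (0.38, adjusted p = 0.042), Mef2c (0.39, adjusted p = 0.024), Spi1 (0.77, adjusted p = 9e-08) and Bhlhe41 (1.16, adjusted p = 2.5e-09) were called higher, and Runx1 was at 0.42 (adjusted p = 0.052). Each cell thus held on average 7.14 ± 1.42 Maf UMIs under ATV:ISO and 5.20 ± 0.916 under ATV:4D9, and 4.05 ± 0.133 against 6.89 ± 0.357 Spi1 UMIs (SD, n = 4).

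In AppSAA mice, ATV:4D9 lowered 6 of the 9 members relative to ATV:ISO and raised none. Of all genes, 55.1% were called and 27.1% were called lower. The median log2 fold change was -0.44 over the members and -0.03 over all genes. Mitf had the largest fall. It stood at 38.4, 46.0, 47.1 and 41.9 CPM with ATV:ISO and at 20.5, 24.8, 26.7 and 25.2 CPM with ATV:4D9, so that the highest treated mouse lay under the lowest control (log2 fold change -0.84 ± 0.09, adjusted p = 1.5e-07). Maf stood at 395, 364, 428 and 450 CPM with ATV:ISO and at 182, 288, 245 and 267 CPM with ATV:4D9, at -0.74 ± 0.12 (adjusted p = 3.3e-05). Mef2a (-0.63 ± 0.11, adjusted p = 0.0001), Sall1 (-0.59 ± 0.14, adjusted p = 0.0015), Mef2c (-0.44 ± 0.06, adjusted p = 1.1e-05) and Irf8 (-0.31 ± 0.07, adjusted p = 0.00098) were also called lower. In each of these 6 genes, no ATV:4D9 mouse reached the level of an ATV:ISO mouse. The groups did not overlap for 47.6% of all genes.

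The other 3 members were not called in AppSAA mice. Runx1 went from 202 ± 16.1 to 185 ± 13.8 CPM (-0.12 ± 0.08, adjusted p = 0.22), Spi1 from 384 ± 61.4 to 433 ± 67.6 CPM (0.17 ± 0.13, adjusted p = 0.29) and Bhlhe41 from 171 ± 13.6 to 182 ± 19.8 CPM (0.09 ± 0.09, adjusted p = 0.40). Spi1 was higher with ATV:4D9 in all 4 pools and Runx1 lower in all 4. With the pool as a block, Spi1 was called higher (0.17, adjusted p = 0.00069) and Runx1 lower (-0.12, adjusted p = 0.0075), in a fit that called 70.7% of all genes. Counted per cell, where the median of all genes was 0.47 and 55.3% were called, no member was called lower and Spi1 (0.68, adjusted p = 8.8e-07) and Bhlhe41 (0.59, adjusted p = 3.7e-05) were called higher. On that scale Irf8 (0.19, adjusted p = 0.34), Mef2c (0.07, adjusted p = 0.74) and Runx1 (0.37, adjusted p = 0.10) changed sign without a call. The per-cell fit had no pool term. By pool, Mitf held 0.375, 0.484, 0.587 and 0.519 UMIs per cell with ATV:ISO and 0.313, 0.361, 0.433 and 0.443 with ATV:4D9. Mef2a held 4.44, 4.87, 6.45 and 7.06 with ATV:ISO and 4.11, 4.68, 5.51 and 6.40 with ATV:4D9. Maf and Sall1 were higher per cell with ATV:4D9 in pool 2 and lower in the other pools.

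Whether the ATV:4D9 effect differed between genotypes was tested as an interaction, for which 9.14% of all genes were called. Of the members, Maf alone was called. Its fall was smaller in AppSAA mice by 0.56 ± 0.17 on the log2 scale (adjusted p = 0.043), from a control level of 409 ± 37.9 CPM against 740 ± 65.2 CPM in WT mice. That call was lost in 12 of the 16 fits that left out 1 mouse, with adjusted p up to 0.13. These left out pools 2, 3 and 4 of WT ATV:ISO, 1, 3 and 4 of WT ATV:4D9, 1, 2 and 3 of AppSAA ATV:ISO or 2, 3 and 4 of AppSAA ATV:4D9. In the fit with the pool as a block, 6 members were called, all with a positive difference, and 30.5% of all genes were called. They were Runx1 (0.30, adjusted p = 0.00044), Maf (0.54, adjusted p = 0.0015), Spi1 (0.25, adjusted p = 0.0025), Mef2a (0.31, adjusted p = 0.0026), Sall1 (0.32, adjusted p = 0.0061) and Irf8 (0.16, adjusted p = 0.030). On the per-cell scale, which called 15.9% of all genes, the interaction of Maf was 0.21 (adjusted p = 0.66), and Bhlhe41 was the only member called (-0.56, adjusted p = 0.0096). The other 7 members had a negative difference there, from -0.03 to -0.33, without a call.

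The genotype comparison sets AppSAA against WT mice that were given no TREM2-activating antibody. Age and sex may differ between these groups as well, as set out above. Under ATV:ISO, AppSAA mice had lower levels of 4 of the 9 members than WT mice and higher levels of none by the test. Of all genes, 28.2% were called and 13.7% were called lower. The median log2 difference was -0.16 over the members and -0.06 over all genes. Maf was again the largest, at 364 to 450 CPM in AppSAA against 648 to 802 CPM in WT mice, with a log2 difference of -0.85 ± 0.12 (adjusted p = 1.7e-05). Sall1 stood at 218, 203, 260 and 287 CPM in AppSAA mice, below the WT range from 297 CPM (-0.48 ± 0.14, adjusted p = 0.014). Mef2a stood at 455, 463, 518 and 570 CPM, below the WT range from 616 CPM (-0.45 ± 0.11, adjusted p = 0.0050). Runx1 was called at -0.24 ± 0.08 (adjusted p = 0.040) with overlapping groups. Irf8 lay higher in each AppSAA mouse than in any WT mouse, at 607 ± 24.1 against 546 ± 23.1 CPM, without passing the test (0.15 ± 0.07, adjusted p = 0.12). In this contrast the groups did not overlap in either direction for 27.4% of all genes.

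Some of these calls depended on single mice. The Sall1 call was lost without the pool 2 mouse of AppSAA ATV:ISO (-0.40, adjusted p = 0.059), which left 2 members called. The Runx1 call was lost in 4 of 8 such fits, those without pool 3 or 4 of WT ATV:ISO or pool 1 or 2 of AppSAA ATV:ISO (adjusted p 0.10 to 0.14). Mitf was not called (43.4 ± 3.97 against 40.1 ± 3.09 CPM, log2 difference 0.11 ± 0.09, adjusted p = 0.37), nor was Mef2c (-0.08 ± 0.06, adjusted p = 0.36). With the pool as a block 7 members and 51% of all genes were called, the added ones being Spi1 (-0.16, adjusted p = 0.0029), Irf8 (0.15, adjusted p = 0.0029) and Bhlhe41 (0.23, adjusted p = 0.0040), which without it had adjusted p of 0.42, 0.12 and 0.064. Counted per cell, where the median of all genes was 0.18 and 24.4% were called, Maf was called lower (-0.62, adjusted p = 0.028) and Bhlhe41 higher (0.46, adjusted p = 0.0015), and Spi1 (0.08, adjusted p = 0.61) and Mef2c (0.15, adjusted p = 0.56) changed sign without a call.

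For 4D9 without the transport vehicle, no difference was detectable in the members. Against ATV:ISO in AppSAA mice, the log2 differences of the 9 members ran from -0.05 to 0.05, and the smallest unadjusted p among them was 0.66. The share of all genes called by edgeR was 0%, with 79 of 14058 genes at an unadjusted p under 0.05, and DESeq2 called 1. A test with exact p-values would put a share of about 0.05 there without any difference, so edgeR p-values ran high here. A missing call is therefore weak evidence of no difference. The fit has no pool term, so its spread includes pool differences, whose part was not tested. With the pool as a block, 0 genes were called as well. Maf stood at 382 to 449 CPM with 4D9 and at 364 to 450 CPM with ATV:ISO. Mitf stood at 40.0 to 49.4 CPM and at 38.4 to 47.1 CPM. In each member the groups overlapped. Set against 4D9, ATV:4D9 lowered the members Mitf (-0.87 ± 0.09, adjusted p = 9.1e-08), Maf (-0.79 ± 0.12, adjusted p = 1.5e-05), Mef2a (-0.59 ± 0.11, adjusted p = 0.0002), Sall1 (-0.53 ± 0.14, adjusted p = 0.0033), Mef2c (-0.43 ± 0.06, adjusted p = 1.4e-05) and Irf8 (-0.29 ± 0.07, adjusted p = 0.0014). Of all genes, 54.3% were called in that contrast and 26.7% called lower. The ATV:4D9 mice are the same as in the contrast with ATV:ISO, so these values are not a second observation of the fall. With the pool as a block, Spi1 (0.20, adjusted p = 0.00022) and Runx1 (-0.15, adjusted p = 0.0019) were called as well, beside 69.9% of all genes. Counted per cell, the median of all genes was 0.42 and 52.7% were called. On that scale Irf8 (0.15, adjusted p = 0.46), Mef2c (0.02, adjusted p = 0.91) and Runx1 (0.29, adjusted p = 0.20) changed sign without a call. Mitf held 0.518 ± 0.122 UMIs per cell with 4D9 and 0.388 ± 0.0619 with ATV:4D9, and Maf 4.99 ± 1.24 and 3.91 ± 0.810. Mef2a held 5.75 ± 1.56 and 5.17 ± 0.997, and Sall1 2.76 ± 0.849 and 2.59 ± 0.647. Spi1 held 4.30 ± 0.281 and 6.86 ± 0.905, and Bhlhe41 1.99 ± 0.252 and 2.88 ± 0.199 (SD, n = 4). These means are given without a test.

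**Figure D2:**
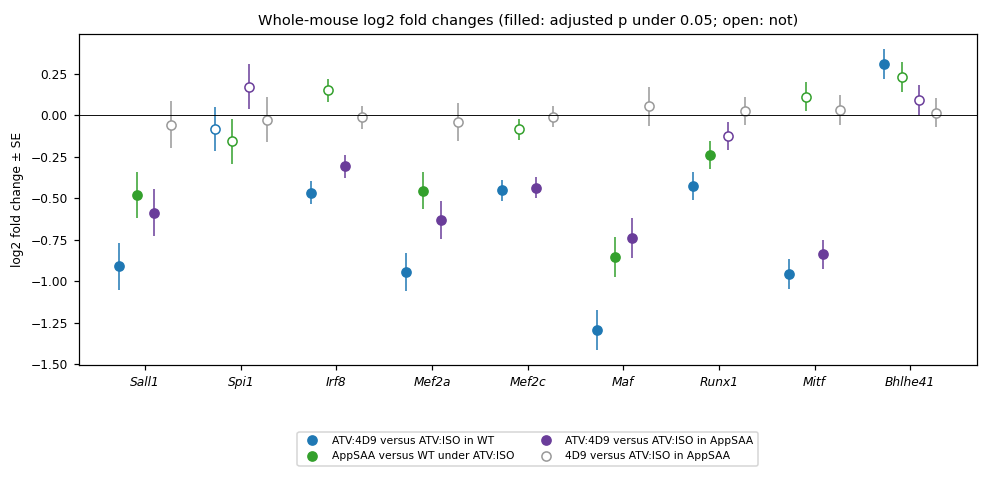
Whole-mouse log2 fold change of each member (vertical axis, with its SE) in 4 contrasts. Filled points have an adjusted p under 0.05. Maf, Mef2a and Sall1 are below 0 in the ATV:4D9 contrasts and in the genotype contrast, Mitf only in the ATV:4D9 contrasts, and 4D9 lies between -0.05 and 0.05 for each member.

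The order of the 5 groups differed between members. For Sall1, Mef2a and Mef2c the order was WT ATV:ISO, then AppSAA ATV:ISO and 4D9, then WT ATV:4D9 and AppSAA ATV:4D9. Within this order, the AppSAA ATV:ISO and 4D9 mice overlapped and the 2 ATV:4D9 groups overlapped. Both pairs overlapped in Maf too. For Mitf, the 3 groups without ATV:4D9 overlapped at 35.8 to 49.4 CPM and the ATV:4D9 groups lay at 19.5 to 26.7 CPM. Irf8 was highest in AppSAA mice given ATV:ISO (607 ± 24.1 CPM) or 4D9 (602 ± 47.6 CPM) and lowest in WT mice given ATV:4D9 (395 ± 18.6 CPM), with AppSAA ATV:4D9 mice at 491 ± 32.3 CPM. For Spi1, Runx1 and Bhlhe41 each group overlapped its neighbour in the order.

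The share of cells with at least 1 UMI of a gene was compared at a common depth. Each cell was thinned to 3000 UMIs, which left out between 133 and 230 cells per group. Maf was then detected in 86.5% ± 3.13 of cells in WT control mice and in 57.8% ± 5.41 of cells in treated WT mice (SD over 4 mice), and in 63.7% ± 4.08 and 46.6% ± 7.70 in AppSAA mice. Mitf was detected in 12.4% ± 1.41 and 6.37% ± 0.626 of cells in WT mice and in 11.8% ± 1.29 and 7.03% ± 1.1004 in AppSAA mice. Sall1 was detected in 65.3% ± 5.60 and 42.4% ± 5.23 of WT cells. Without thinning the Maf shares were 97.2% and 93.7% in WT mice and the Mitf shares 29.1% and 27.3%. The mean thinned share was lower with ATV:4D9 for 8 of 9 members in WT mice, Bhlhe41 being the exception at 36.6% ± 1.22 and 41.7% ± 3.54. No cell type that should lack these genes was present in number, so no background share could be set beside them. Spi1 was found in 75.1% ± 3.57 and 70.0% ± 2.58 of thinned WT cells. Without thinning its shares went the other way, at 94.9% ± 0.338 and 97.8% ± 0.528. Unthinned Runx1 shares were also higher with ATV:4D9 in WT mice, at 79.1% ± 5.07 and 84.0% ± 3.65.

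The deposited annotation splits the cells into 6 clusters at resolution 0.2, without names, and the factors were described in each. Clusters were built from the expression of these same cells, so differences between them are given without a test. Cluster 0 held 60.4% ± 2.595 of the cells of WT ATV:ISO mice and cluster 3 held 35.8% ± 2.56. In WT ATV:4D9 mice, clusters 2 and 4 held 47.8% ± 3.48 and 40.0% ± 4.44. Cluster 1 held 38.3% ± 4.64 of the cells of AppSAA ATV:ISO mice and 13.5% ± 3.05 of those of AppSAA ATV:4D9 mice, in which cluster 5 held 22.4% ± 4.26. The whole-mouse differences therefore compare different mixtures of clusters, whose part in those differences was not tested.

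The mean of Maf was 667 ± 118 CPM in cluster 0 (n = 20 mice with at least 20 cells) and 491 ± 118 CPM in cluster 3 (n = 20). It was 314 ± 80.8 CPM in cluster 2, 343 ± 110 CPM in cluster 5 (n = 17), 252 ± 60.1 CPM in cluster 1 and 247 ± 41.3 CPM in cluster 4 (n = 16 each). Of the WT ATV:ISO mice, none had 20 cells in cluster 4 and 1 had them in cluster 5. Of the WT ATV:4D9 mice, 1 had them in cluster 1. In every mouse with both values Maf was lower in each of clusters 1 to 5 than in cluster 0, and this direction held for the cluster means on plain UMI totals and for UMIs per cell. Sall1 was likewise lower than in cluster 0 in every mouse, with means of 331 ± 52.7 CPM in cluster 0, 282 ± 46.6 CPM in cluster 3 and between 164 and 200 CPM in clusters 1, 2, 4 and 5. Per cell, Sall1 was higher in clusters 3 and 4 than in cluster 0. Mef2a had means of 638 ± 79.2 and 614 ± 79.2 CPM in clusters 0 and 3 and between 314 and 406 CPM in clusters 1, 2, 4 and 5, though per cell it was higher in clusters 2, 3 and 4 than in cluster 0. The cluster 5 means of Maf, Sall1 and Mef2a depended on the group. They were 394, 244 and 468 CPM in AppSAA ATV:ISO mice and 240, 155 and 327 CPM in AppSAA ATV:4D9 mice.

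Over the mice with at least 20 cells in a cluster, Mitf had a mean of 55.4 ± 10.1 CPM in cluster 1 (n = 16), above cluster 0 in 16 of 16 mice. In cluster 4, without any WT ATV:ISO mouse, its mean was 17.0 ± 4.33 CPM, below cluster 0 in 16 of 16 mice. The means of clusters 2 and 5 depended on the group. Cluster 2 lay at 20.3 ± 1.25 and 21.4 ± 1.70 CPM in the AppSAA and WT ATV:4D9 mice and between 32.3 and 41.6 CPM in the other groups. In WT ATV:4D9 mice cluster 5, at 17.1 ± 1.13 CPM, lay below cluster 4, at 19.2 ± 1.64 CPM. The excess in cluster 1 over cluster 0 was 0.66 on the log2 scale, 0.20 on plain UMI totals and 1.16 per cell. The deficit in cluster 4 was a log2 difference of -1.04, which became 0.20 per cell, where cells held 20599 ± 2505 UMIs against 7632 ± 645 in cluster 0.

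Irf8 was highest in cluster 5, at 695 ± 89.0 CPM, above cluster 0 (513 ± 39.2 CPM) in 17 of 17 mice, and in cluster 1, at 643 ± 70.0 CPM. The excess in cluster 1 turned into a deficit on plain UMI totals (-0.12 on the log2 scale). Runx1 was higher in cluster 3 than in cluster 0 in 20 of 20 mice, at 254 ± 26.2 against 215 ± 17.1 CPM. In AppSAA mice given 4D9 its mean was 262 ± 42.4 CPM in cluster 5 and 247 ± 19.3 CPM in cluster 3. Mef2c was level between clusters 0 and 3 (940 ± 38.9 and 940 ± 54.1 CPM) and lower in clusters 2, 4 and 5 (725 to 756 CPM), but per cell it was higher in each of these than in cluster 0. The means of Spi1 lay between 368 and 435 CPM and those of Bhlhe41 between 152 and 191 CPM, and the signs of most of their differences from cluster 0 changed between scales.

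**Figure D3:**
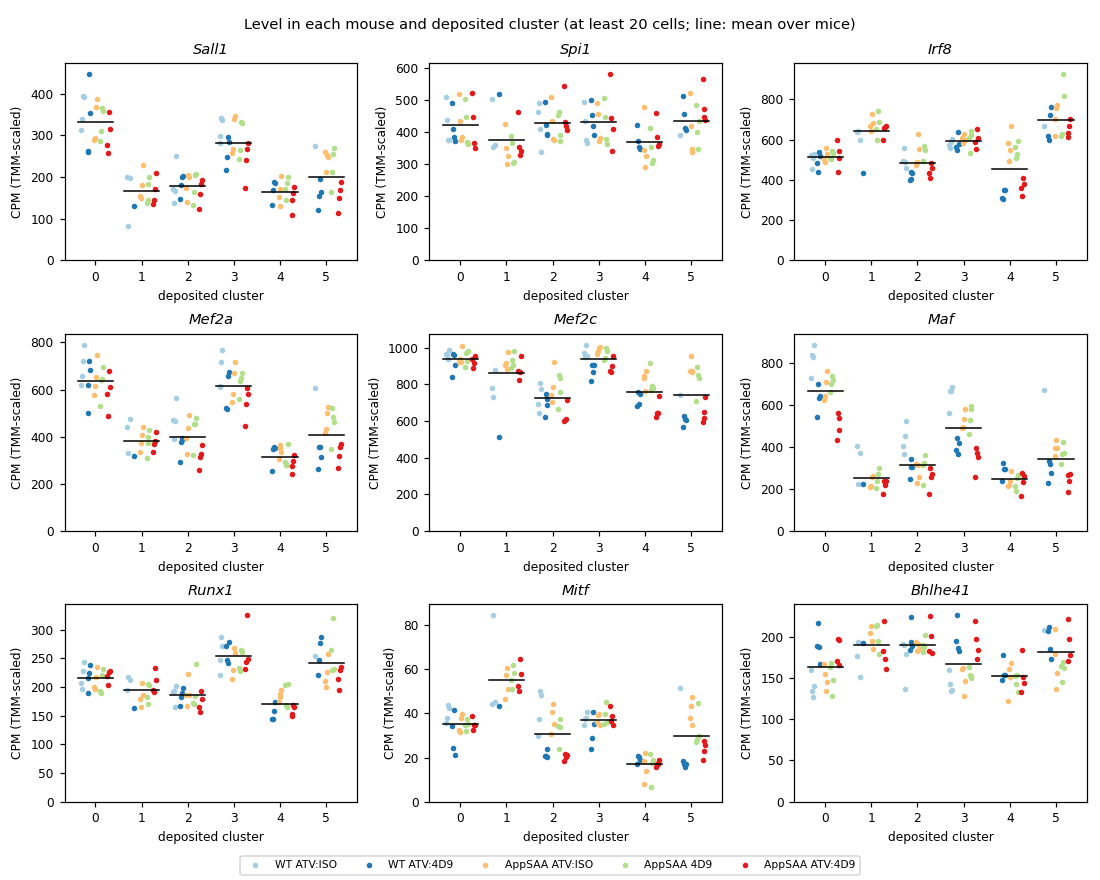
Level of each member (CPM on TMM-scaled library sizes) in each mouse and deposited cluster with at least 20 cells, coloured by group, with a line at the mean over mice. Maf is highest in cluster 0, Mitf is above its cluster 0 level in cluster 1 and below it in cluster 4, and the Spi1 means lie between 368 and 435 CPM.

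Clusters were built from expression, so which cells fall in a cluster can depend on treatment. Cluster 0 held 60.4% of cells in WT ATV:ISO mice and 3.11% in WT ATV:4D9 mice. Cluster 5 held 2.48% in AppSAA ATV:ISO mice and 22.4% in AppSAA ATV:4D9 mice. A difference within a cluster is therefore not one within a fixed cell state, and the part of this selection was not tested. With that limit, the contrasts were repeated within clusters that had at least 3 mice with 20 cells on each side. In WT mice this left clusters 0, 2 and 3, in which 1.47%, 5.88% and 6.17% of all genes were called. Of 27 tests of members, 6 were called, 4 lower and 2 higher. Maf was lower in each of these clusters. In cluster 3 it stood at 562, 666, 663 and 682 CPM with ATV:ISO and at 384, 444, 368 and 419 CPM with ATV:4D9 (-0.69 ± 0.12, adjusted p = 0.00045). It was lower in cluster 0 (-0.39 ± 0.10, adjusted p = 0.043) and in cluster 2 (-0.57 ± 0.16, adjusted p = 0.035). Mitf was called lower in cluster 2, where it went from 29.8, 37.6, 50.4 and 48.5 CPM to 20.8, 20.8, 23.9 and 20.1 CPM (-0.99 ± 0.18, adjusted p = 0.0016). With the pool as a block it was also called in clusters 0 (-0.47, adjusted p = 0.013) and 3 (-0.30, adjusted p = 0.049). Bhlhe41 was higher in cluster 3 (143 against 197 CPM on average, 0.45 ± 0.09, adjusted p = 0.0031) and in cluster 0 (0.43 ± 0.10, adjusted p = 0.028).

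In AppSAA mice all 6 clusters could be compared. The shares of all genes called in clusters 0 to 5 were 0.667%, 1.34%, 13.2%, 4.33%, 24.5% and 27%. Of 54 tests of members, 12 were called, 11 lower and 1 higher. Cluster 5 held 5 of them. Maf fell there from 355, 396, 432 and 394 CPM to 186, 267, 237 and 270 CPM (-0.79 ± 0.13, adjusted p = 8.6e-05) and Mitf from 37.8, 43.3, 47.5 and 34.6 CPM to 19.1, 23.0, 27.7 and 25.7 CPM (-0.88 ± 0.15, adjusted p = 0.00012). Sall1 (-0.72 ± 0.16, adjusted p = 0.0014), Mef2a (-0.59 ± 0.13, adjusted p = 0.0019) and Mef2c (-0.52 ± 0.10, adjusted p = 0.00054) were also lower in cluster 5.

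Elsewhere in AppSAA mice, Irf8 was lower in cluster 4, where it went from 584, 494, 546 and 668 CPM to 358, 322, 409 and 378 CPM (-0.66 ± 0.11, adjusted p = 6e-05). Mitf was lower in cluster 2 (-0.93 ± 0.14, adjusted p = 3.5e-05) and Maf in clusters 0 (-0.45 ± 0.10, adjusted p = 0.037) and 3 (-0.62 ± 0.12, adjusted p = 0.0021). Mef2c was lower in clusters 2 (-0.33 ± 0.11, adjusted p = 0.038) and 4 (-0.34 ± 0.09, adjusted p = 0.0093), and Bhlhe41 higher in cluster 3 (0.34 ± 0.09, adjusted p = 0.030). In cluster 1, no member was called and the log2 fold changes ran from -0.11 to 0.18, with 0 members at an unadjusted p under 0.05. With the pool as a block, Runx1 was called higher there (0.18, adjusted p = 0.037). Mitf stood at 46.7 to 60.8 CPM with ATV:ISO and 50.3 to 64.7 CPM with ATV:4D9 in that cluster. Whether the effects differ between clusters was not tested.

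**Figure D4:**
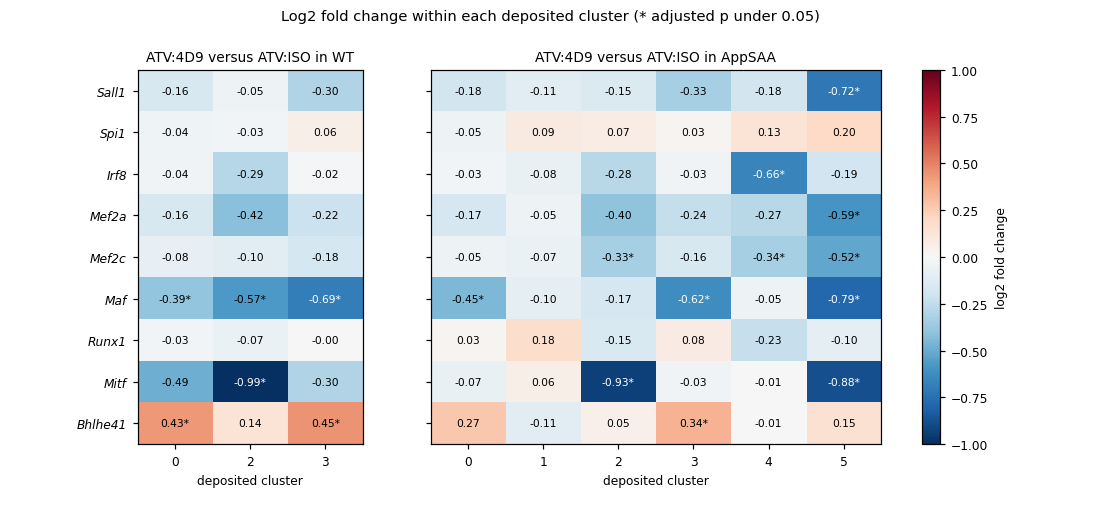
Log2 fold change of each member for ATV:4D9 against ATV:ISO within each deposited cluster that could be tested, in WT mice (left, 3 clusters) and AppSAA mice (right, 6 clusters). Asterisks mark an adjusted p under 0.05. Maf is marked in clusters 0 and 3 of both genotypes, Mitf in cluster 2 of both, and no member is marked in cluster 1.

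Some of these calls rest on few cells, with as few as 37 cells of cluster 0 in a treated mouse and 23 of cluster 2 in a control mouse. When each pool was left out in turn, 1 of the 6 calls in WT mice (Maf in cluster 3) and 7 of the 12 in AppSAA mice (the 5 of cluster 5, Mitf in cluster 2 and Irf8 in cluster 4) stayed past the threshold every time. Pools 2, 3 and 4 each took the WT count to 3, 3 and 2. The share of all genes called in the fits without a pool is not given beside these counts. Under the block the counts were 14 in WT and 22 in AppSAA mice, where 12.6% and 18.4% of all gene-by-cluster tests were called. The calls added in WT mice were Sall1 in clusters 0 (-0.18, adjusted p = 0.047) and 3 (-0.30, adjusted p = 0.00026), Mef2a in clusters 2 (-0.42, adjusted p = 0.0056) and 3 (-0.22, adjusted p = 0.0047), Mef2c in cluster 3 (-0.18, adjusted p = 0.013), Irf8 in cluster 2 (-0.29, adjusted p = 0.019) and Mitf in clusters 0 and 3. Those added in AppSAA mice were Mef2a in clusters 0 (-0.22, adjusted p = 0.024), 2 (-0.41, adjusted p = 0.0014), 3 (-0.24, adjusted p = 0.0042) and 4 (-0.26, adjusted p = 0.024), Sall1 in cluster 3 (-0.33, adjusted p = 0.00022) and Mef2c in cluster 3 (-0.16, adjusted p = 0.039). Irf8 in cluster 2 (-0.28, adjusted p = 0.0060), Runx1 in clusters 1 (0.18, adjusted p = 0.037) and 4 (-0.22, adjusted p = 0.039) and Bhlhe41 in cluster 0 (0.27, adjusted p = 0.032) were added there too. Per cell, 1 and 5 calls were made, beside 4.18% and 9.5% of all gene-by-cluster tests.

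Within clusters, AppSAA and WT mice given ATV:ISO were also compared. Of 36 tests of members over clusters 0 to 3, 0 were called by edgeR, with 4 at an unadjusted p under 0.05 and 0 by limma-voom. The share called was 0.524% of all gene-by-cluster tests. With the pool as a block, Maf was called lower in cluster 0 (-0.26, adjusted p = 0.00021), cluster 2 (-0.66, adjusted p = 0.021) and cluster 3 (-0.29, adjusted p = 0.012), beside 2.62% of all gene-by-cluster tests. Without pool 1, there was 1 call without the block. For 4D9 against ATV:ISO, 0 of 54 tests of members were called by edgeR or limma-voom, 0 lay at an unadjusted p under 0.05, and 0% of all gene-by-cluster tests were called. For ATV:4D9 against 4D9, 11 of 54 were called, all lower, where 8.9% of all gene-by-cluster tests were called. With the block there were 18, beside 15.1% of all gene-by-cluster tests, the added ones being Mef2a (-0.24, adjusted p = 0.0044), Sall1 (-0.28, adjusted p = 0.0017) and Bhlhe41 (0.28, adjusted p = 0.0028) in cluster 3, Irf8 in cluster 2 (-0.25, adjusted p = 0.015), Mitf in cluster 5 (-0.51, adjusted p = 0.040) and Runx1 in clusters 4 (-0.22, adjusted p = 0.046) and 5 (-0.30, adjusted p = 0.027). In fits without pool 2 or pool 3 there were 4 and 5 calls. The share of all gene-by-cluster tests called is not given for fits without a pool. The smallest adjusted p of the 11 was that of Irf8 in cluster 4 (-0.60 ± 0.11, adjusted p = 0.0002), followed by Maf in clusters 5 (-0.68 ± 0.13, adjusted p = 0.0011) and 3 (-0.66 ± 0.12, adjusted p = 0.0014). The adjustment was made in each cluster separately. By the unadjusted edgeR p, Maf in cluster 3 came first (7.3e-06), then Irf8 in cluster 4 (8.8e-06).

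Relatives and partners of the members moved in both directions. Of 33 such factors, 30 were tested. For this and the following gene lists, counts and medians are relative to total UMIs. Per cell, the median of all genes was 0.79 with ATV:4D9 in WT mice, 0.47 in AppSAA mice and 0.18 between genotypes. Directions in the lists may differ on that scale, which is not given for them. In WT mice ATV:4D9 lowered 21 and raised 4, in a contrast that called 63.3% of all genes and 32.5% lower, with a median log2 fold change of -0.48 against -0.05 over all genes. Among those with the largest falls were Cebpa, a myeloid C/EBP factor (-1.41 ± 0.09, adjusted p = 2.1e-11) and the ETS factor Fli1 (-0.93 ± 0.09, adjusted p = 1.8e-08). The small MAF gene Maff (1.69 ± 0.21, adjusted p = 5.6e-07) and Cbfb, the obligate partner of RUNX proteins (0.72 ± 0.08, adjusted p = 1.6e-07), rose, as did Batf3 (0.32 ± 0.09, adjusted p = 0.0047). In AppSAA mice, where 55.1% of all genes were called and 27.1% called lower, 19 fell and 5 rose, Cebpa at -0.98 ± 0.08 (adjusted p = 7.8e-09) and Cbfb at 0.57 ± 0.08 (adjusted p = 4.4e-06), with a median of -0.32 against -0.03.

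The close relative of Bhlhe41 followed the genotype. Bhlhe40 (DEC1) stood at 1.82 ± 0.625 CPM in WT and 24.1 ± 4.41 CPM in AppSAA mice under ATV:ISO (3.69 ± 0.24, adjusted p = 5.4e-10) and fell with ATV:4D9 in AppSAA mice to 9.16 ± 2.27 CPM (-1.41 ± 0.19, adjusted p = 4.5e-06). Maff was also higher in AppSAA than in WT mice (2.33 ± 0.21, adjusted p = 3.8e-08). In the genotype contrast, with 28.2% of all genes called and 13.7% called lower, 10 of the 30 fell and 5 rose, with Fli1 (-0.48 ± 0.09, adjusted p = 0.00029) and the glucocorticoid receptor Nr3c1 (-0.42 ± 0.06, adjusted p = 9.8e-06) among the falls. The median was -0.20 against -0.06 over all genes. With 4D9, 0 of the 30 were called by edgeR.

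The 20 microglial genes on a list of those known from knockouts or enhancer studies to depend on these factors were set beside them. ATV:4D9 lowered 15 and raised 1 in WT mice (median -0.55 against -0.05) and lowered 12 and raised 1 in AppSAA mice (median -0.28 against -0.03). Of all genes, 63.3% were called and 32.5% called lower in WT mice, and 55.1% and 27.1% in AppSAA mice. P2ry12, the purinergic receptor of resting microglia, fell by 1.38 on the log2 scale in WT mice (SE 0.11, adjusted p = 1.4e-09), from 2611 ± 77.6 to 1000 ± 94.2 CPM, and by 1.19 in AppSAA mice (SE 0.11, adjusted p = 2.1e-08). Crybb1 (-1.32 ± 0.14, adjusted p = 1.3e-07) and the hexose transporter Slc2a5 (-1.14 ± 0.10, adjusted p = 3.7e-09) fell in WT mice too. Gpr84, a receptor for medium-chain fatty acids, rose in both genotypes (2.01 ± 0.18, adjusted p = 6.5e-09 in WT and 1.87 ± 0.18, adjusted p = 2.9e-08 in AppSAA). In AppSAA against WT mice, 16 of the 20 were lower and 0 higher by edgeR (median -0.45 against -0.06), where 13.7% of all genes were called lower, with Crybb1 (-1.06 ± 0.14, adjusted p = 1.1e-05) and Tmem119 (-0.66 ± 0.09, adjusted p = 9.3e-06) among them. The lists overlap in part with the microglial markers used above.

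Of 15 lysosomal and other genes known as MiT/TFE targets, 14 were tested. In AppSAA against WT mice, where Mitf was not called, 10 were higher and 0 lower (median 0.47 against -0.06), where 28.2% of all genes were called and 13.7% called lower, led by Gpnmb, a lysosomal glycoprotein (4.48 ± 0.55, adjusted p = 3.2e-06), Cd63 (1.17 ± 0.09, adjusted p = 3.8e-09) and the protease Ctsb (1.05 ± 0.08, adjusted p = 2.8e-09). With ATV:4D9 in WT mice 3 rose and 5 fell (median -0.24 against -0.05), near the share of all genes, of which 63.3% were called and 32.5% called lower. Ctsb (0.78 ± 0.08, adjusted p = 2.8e-08), Cd63 (0.69 ± 0.09, adjusted p = 1e-06) and Ctsd (0.25 ± 0.08, adjusted p = 0.0082) rose, whereas Flcn, a regulator of TFE factors (-1.37 ± 0.12, adjusted p = 7.2e-09), and the sialidase Neu1 (-0.59 ± 0.07, adjusted p = 4.7e-07) fell. In AppSAA mice 11 fell and 0 rose by edgeR (median -0.30 against -0.03), where 27.1% of all genes were called lower, among them Gpnmb (-1.12 ± 0.45, adjusted p = 0.042), Flcn (-0.88 ± 0.12, adjusted p = 4.3e-06) and Hexa (-0.60 ± 0.10, adjusted p = 2.9e-05). Of the 14, 5 were called in the interaction, which called 9.14% of all genes. Among them, Cd63 (-0.77 ± 0.12, adjusted p = 0.00043), Ctsb (-0.71 ± 0.11, adjusted p = 0.0003) and Ctsd (-0.67 ± 0.11, adjusted p = 0.00056) were negative and Neu1 (0.41 ± 0.10, adjusted p = 0.012) positive.

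**Figure D5:**
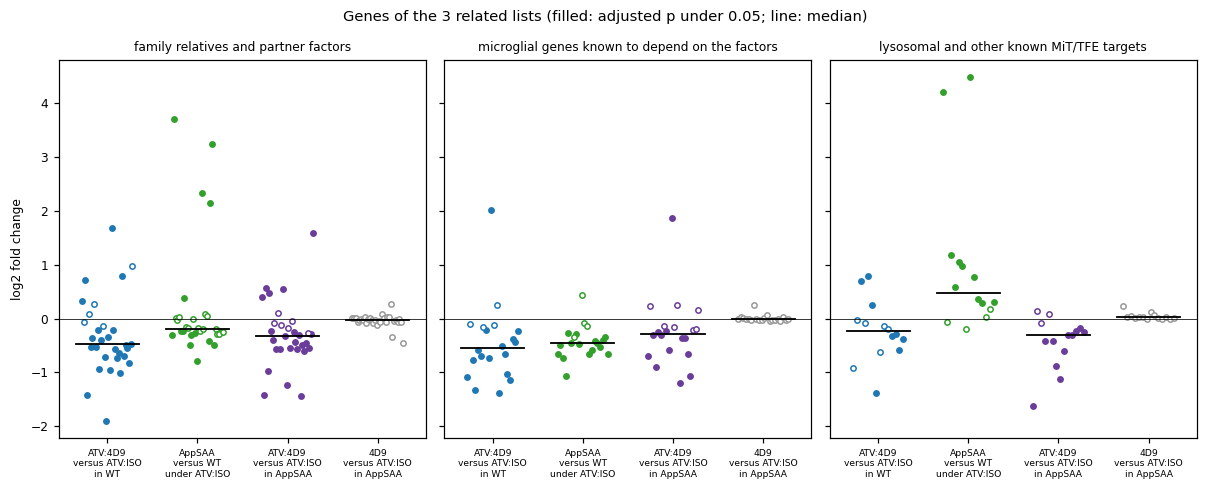
Log2 fold change of each tested gene of the 3 related lists (vertical axis) in 4 contrasts. Filled points have an adjusted p under 0.05 and lines mark medians. Most dependent genes lie below 0 in both ATV:4D9 contrasts and the genotype contrast, the median of the lysosomal list is 0.47 in the genotype contrast and below 0 in both ATV:4D9 contrasts, and no gene of the lists is filled for 4D9.

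The genes whose pattern over the 20 mice was nearest to each member were found by the root mean square (RMS) difference of log2 CPM centred on each gene's mean, among 8024 genes with a mean of at least 10 CPM. For Sall1 they were Cd33 (0.066), Dock4 (0.068) and Tanc2 (0.069), and for Mef2a they were Tnrc6b (0.058), Cd33 (0.060) and Tanc2 (0.066). Sall1 and Mef2a were also the nearest members to each other (0.077), with 5 other genes nearer to Sall1 and 6 nearer to Mef2a. For Maf the nearest were Nrip1 (0.085), Zdhhc14 (0.10) and Rhobtb1 (0.13), with an RMS of Maf itself about its mean of 0.57. For Mitf they were Slc37a2 (0.083), Prkch (0.093) and Crtc3 (0.11), and 534 genes were nearer to it than Irf8, its closest member. For the other members they were Asl, March8 and Ccny for Irf8 (0.071 to 0.086), Osbpl2, Bptf and Ipmk for Mef2c (0.068 to 0.077), Evl, Mark2 and Arap1 for Runx1 (0.058 to 0.064), Iscu, Tm2d3 and Dapk3 for Spi1 (0.051 to 0.056) and Hadha, Cdk11b and Dctn1 for Bhlhe41 (0.091 to 0.11). This likeness is a description over 20 mice that share groups and pools.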

How the data were processed

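Microglia of 20 mice (5 groups of 4, 1 mouse of each group in each of 4 pools) were analysed as deposited. The authors aligned the reads to mm10 with Cell Ranger 6.1.1 and clustered the cells with Seurat 4, and deposited raw UMI counts per gene and cell with an annotation. The counting's use of strand and the gene annotation are not given in the sources used here. Totals were 17150296 to 102446549 UMIs and 2193 to 6126 cells per mouse. Doublets were not called again, and all annotated cells were kept.

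Counts were added up over the cells of each mouse, also within each deposited cluster where a mouse had at least 20 cells, and tested with edgeR 4.0.16 (R 4.3.3; filterByExpr, TMM, quasi-likelihood test, Benjamini-Hochberg, 0.05) in a fit of all groups without a pool term. Alternatives were RLE size factors, no filter, DESeq2 1.42.0, limma-voom (limma 3.58.1), the pool as a block, UMIs per cell, other cell filters, the mean CPM of cells, only the groups compared, and each mouse or pool left out. The pool number marks mice processed together, and all 40 pairs of same-pool mice of different groups deviated together (r 0.14 to 0.61), so blocked values stand beside results whose call they change.

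The members and gene lists were chosen with earlier results of these data known. Named list genes were taken by a fixed rule: up to 3 genes in each direction with the largest called change and a mean of at least 10 CPM. Scripts were tested on simulated data. Sequences and positions come from RefSeq (GRCm38.p6) and GENCODE M21. Some genes that the rule names are not reported here.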

Additional observations from a re-analysis of the deposited data

Results flagged for a closer look

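In 45 sets of 4 mice (9 genes in 5 groups), 3 had a mouse far from the other 3, where chance gives about 1 in 20. Mef2a was lowest, at 288 CPM, in the pool 1 mouse of WT ATV:4D9, against 376 to 382 CPM in the others. Without that mouse its log2 fold change in WT mice was -0.85 (adjusted p = 2.7e-06). Mef2c was highest, at 754 CPM, in the pool 4 mouse of AppSAA ATV:4D9, against 644 to 661 CPM. Without it the log2 fold change in AppSAA mice was -0.47 (adjusted p = 6.7e-06). Bhlhe41 was highest, at 205 CPM, in the pool 2 mouse of WT ATV:4D9, against 171 to 172 CPM. Without it the log2 fold change in WT mice was 0.24 (adjusted p = 0.030). The effect of ATV:4D9 on Maf differed between genotypes by 0.56 on the log2 scale (adjusted p = 0.043), a call that most fits leaving out 1 mouse did not keep.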

How the results depend on the processing

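Whole-mouse counts of members called were 8 (WT ATV:4D9), 4 (AppSAA against WT), 6 (AppSAA ATV:4D9 against ATV:ISO), 6 (against 4D9), 1 (interaction) and 0 (4D9). With UMIs per cell they were 5, 2, 2, 2, 1 and 0, in fits that called 9912, 3431, 7774, 7410, 2234 and 0 of all 14058 genes. On that scale signs of members called in either fit reversed in WT mice for Spi1 (0.77), Irf8 (0.38), Mef2c (0.39) and Runx1 (0.42), in AppSAA mice against ATV:ISO for Irf8 (0.19) and Mef2c (0.065), and against 4D9 for Irf8 (0.15) and Mef2c (0.025). Members called in neither fit also changed sign, 2 in the genotype contrast (Spi1 and Mef2c), 1 in each of the AppSAA ATV:4D9 contrasts (Runx1), 4 for 4D9 and 7 in the interaction. With the pool as a replicate block, the counts were 8, 7, 8, 8, 6 and 0, in fits that called 10483, 7166, 9943, 9823, 4284 and 0 genes. Leaving out 1 mouse gave 8 to 8, 2 to 5, 6 to 6, 6 to 6, 0 to 1 and 0 to 0. The interaction count was 0 with RLE size factors, with no filter, with limma-voom, with cells of 1000 to 25000 UMIs only, with the mean CPM of cells and with only the groups compared; the cause was not tested. Within clusters the counts were 6 in WT mice, 0 between genotypes, 12 in AppSAA mice and 11 against 4D9. They were 14, 3, 22 and 18 with the block, 1, 0, 5 and 3 per cell, and 2 to 6, 0 to 1, 8 to 10 and 4 to 9 with a pool left out. With at least 50 cells per mouse fewer clusters could be tested, and the counts were 4 of 18 tests, 0 of 18, 9 of 36 and 3 of 27. Of all gene-by-cluster tests, 3.75%, 0.219%, 10.9% and 5.47% were called there. For fits that left out a mouse or a pool, the share of all genes called is not given. Of member levels per cluster, 30 of 45 lay below cluster 0, and 10 did as UMIs per cell, a scale chosen after seeing the data. Without thinning, 5 members in place of 8 had a lower share of cells under ATV:4D9 in WT mice.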
